A study of Mus musculus with 11 samples.

Results

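Genes encoding collagen chains were examined in RNA-seq data of cells sorted from the mouse striatum after knockdown of the transcription factor NF-Y. Members were taken by symbol, Col followed by a type number, a and a chain number, and 9 of the 1767 listed genes had such a symbol. The 11 samples came from wild-type C57BL/6 male mice injected at 6 weeks of age with an adeno-associated virus (AAV) vector. It was injected into both striata, and striata were taken 3 weeks later. The sample labels and the paper's methods do not say whether a sample came from a single mouse. For 6 samples (NT2 control) the vector carried EmGFP with NT2, a miR RNAi that targets no gene. For 5 samples (NF-YA/YC knockdown) it carried EmGFP with miR RNAi against NF-YA and NF-YC. The CAG promoter, which is active in many cell types, drove both vectors, and the cells were sorted only for EmGFP and for exclusion of propidium iodide, so that no neuronal marker was used in the sort.

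The genes had entered the table by a deposited p-value under 0.05 for the same comparison, which all 1767 genes met. The differences of the collagen genes between the groups are therefore given as a description, without a test. Collagen genes outside the table, among them any chain of types I to IV, and any value just past that threshold were not analysed here.

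Collagens are extracellular proteins in which 3 chains wind into a triple helix. Fibrillar collagens form the tensile fibrils of connective tissue, FACIT collagens have interrupted helices and attach to fibril surfaces, type VI collagen forms beaded filaments near basement membranes, and the transmembrane collagens are anchored in the cell membrane and can be shed from it. Neurons and glia of the adult striatum are embedded in a matrix poor in fibrillar collagen, and most brain collagen lies in the meninges and around vessels. NF-Y is a trimer of NF-YA, NF-YB and NF-YC that binds the sequence CCAAT in promoters.

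The listed genes held 1581757 to 3141324 estimated counts per NT2 control sample and 1954949 to 3010153 per knockdown sample, totals of part of each library only. Levels are normalized counts, estimated counts divided by the sample's TMM factor, and all folds compare knockdown with NT2 control. Nfyc, one of the targeted genes, was at 733 to 1206 (median 898) in the NT2 controls. The knockdown samples 4, 6, 8, 10 and 22 had Nfyc counts of 975, 840.4, 887, 603 and 722, so that the groups overlapped, with a log2 fold change of -0.19 (standard error 0.15). With the scaling factors recovered from the authors' log2 values it was -0.32 (standard error 0.14). By qRT-PCR of the sorted striatal cells, the paper reported lower NF-YC expression but no significant fall of NF-YA. Nfya and Nfyb were not analysed here.

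All 9 collagen genes had higher mean counts in the knockdown samples. They fell into 4 classes, comprising the FACIT genes Col16a1 and Col20a1, the fibrillar genes Col11a1 and Col5a3, the beaded filament genes Col6a1, Col6a2 and Col6a5, and the transmembrane genes Col13a1 and Col23a1. Log2 fold changes ranged from 1.10 for Col23a1 to 2.89 for Col5a3, with a median of 2.14 beside -0.13 over all listed genes. With the authors' scaling these medians were 2.01 and -0.27. An unadjusted p-value under 0.05 with a fold above 1.2 in edgeR's fit was met by 9 of 9 members, beside 40.7% of all listed genes in that direction, and by 9 of 9 with the authors' scaling, beside 34.2%. A fitted fold of at least 2 was found for 9 of 9 members, beside 19.3% of the listed genes. With the authors' scaling 8 of 9 reached it, beside 16.2%, and Col23a1 did not. In 7 of 9 members every knockdown sample lay above every control sample, beside 11.4% of the listed genes. With the authors' scaling this was so for 6 of 9, beside 6.90%. Since the table was chosen on this comparison, these shares are printed for scale only.

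**Figure D1:**
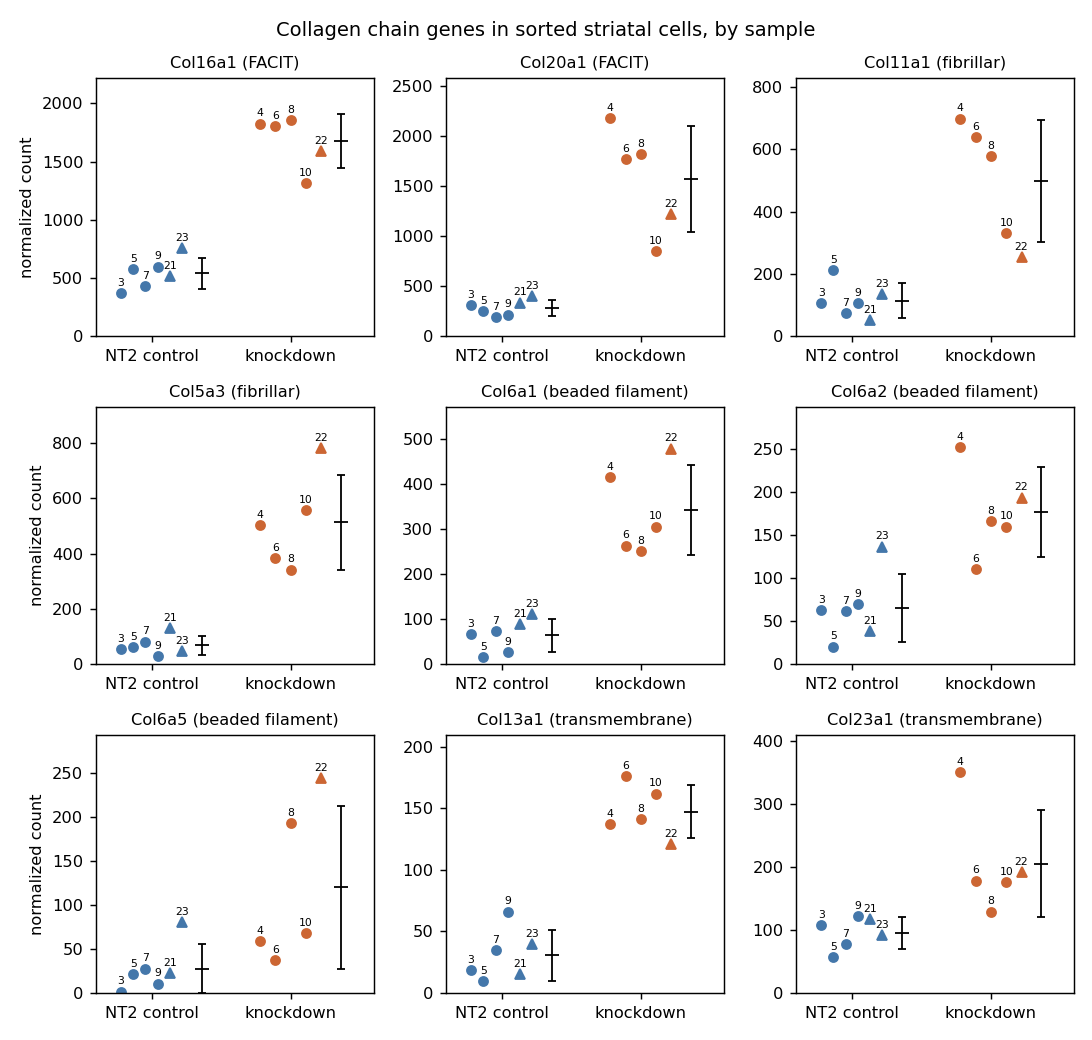
Normalized counts (y axis, from 0, a separate scale in each panel) of the 9 collagen genes in the 6 NT2 control samples (blue) and the 5 NF-YA/YC knockdown samples (orange), with sample numbers. Circles are samples numbered 3 to 10, triangles samples numbered 21 to 23, and black bars the mean with the SD. Only Col6a2 and Col6a5 have a knockdown sample below the highest control sample.

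The promoters were searched for CCAAT, because it is the sequence that NF-Y binds and because the choice of the genes did not use it. RefSeq windows from 250 bases before the start were available for 9 of 9 members. CCAAT, on either strand, lay in the bases before the start in 3 of 9 genes (33.3%), beside 37.5% of the 27025 genes with such a window. It was found in the FACIT gene Col16a1 and in both fibrillar genes. The windows that hold it are shown in GRCm38.p6, 5′ to 3′ on the strand of the gene, from the far end of the window to the edge of the annotated gene. That edge lies before the start from which positions are counted. Thus 227, 200 and 189 of the 250 bases are shown for Col16a1, Col5a3 and Col11a1. Capitals mark CCAAT, which reads ATTGG where it lies on the opposite strand.
Col16a1: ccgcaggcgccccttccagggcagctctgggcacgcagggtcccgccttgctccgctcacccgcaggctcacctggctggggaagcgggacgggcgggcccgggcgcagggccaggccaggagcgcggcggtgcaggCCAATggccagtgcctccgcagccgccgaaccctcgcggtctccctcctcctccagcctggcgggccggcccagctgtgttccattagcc
Col5a3: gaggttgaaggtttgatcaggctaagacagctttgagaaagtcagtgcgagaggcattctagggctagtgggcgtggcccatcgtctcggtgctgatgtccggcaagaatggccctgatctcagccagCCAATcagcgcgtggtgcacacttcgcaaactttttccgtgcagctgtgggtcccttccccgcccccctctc
Col11a1: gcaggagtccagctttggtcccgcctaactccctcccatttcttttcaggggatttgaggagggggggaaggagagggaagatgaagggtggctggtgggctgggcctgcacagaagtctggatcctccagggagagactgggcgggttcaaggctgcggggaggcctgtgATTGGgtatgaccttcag
The Col16a1 window is chr4:130047590-130047816 on the plus strand, with the match at positions -113 to -109 from the start. The Col5a3 window is chr9:20815118-20815317 on the minus strand, with the match at -122 to -118. The Col11a1 window is chr3:114030290-114030478 on the plus strand, with the match on the opposite strand at -79 to -75.

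A GC box was searched as GGGCGG on either strand, and no match of it overlapped a match of CCAAT in these genes. It lay before the start of 6 of 9 genes (66.7%), beside 35.4% of all genes with a window. Windows were found for 1352 of the 1767 listed genes (76.5%), too few to stand for the table. Among these, 57.6% held a GC box and 41.9% CCAAT, and among the 560 of them with a positive fold change 50.4% and 33.4%. The genes without one were Col20a1, Col6a1 and Col13a1, which also held no CCAAT in the window. The GC content of the searched bases ran from 49.2% in Col20a1 to 75.6% in Col16a1. Log2 fold changes of the genes with CCAAT were 1.64, 2.89 and 2.14, and those of the other genes ran from 1.10 to 2.48. A match is only a match of letters in this window, and no binding was measured.

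**Figure D2:**
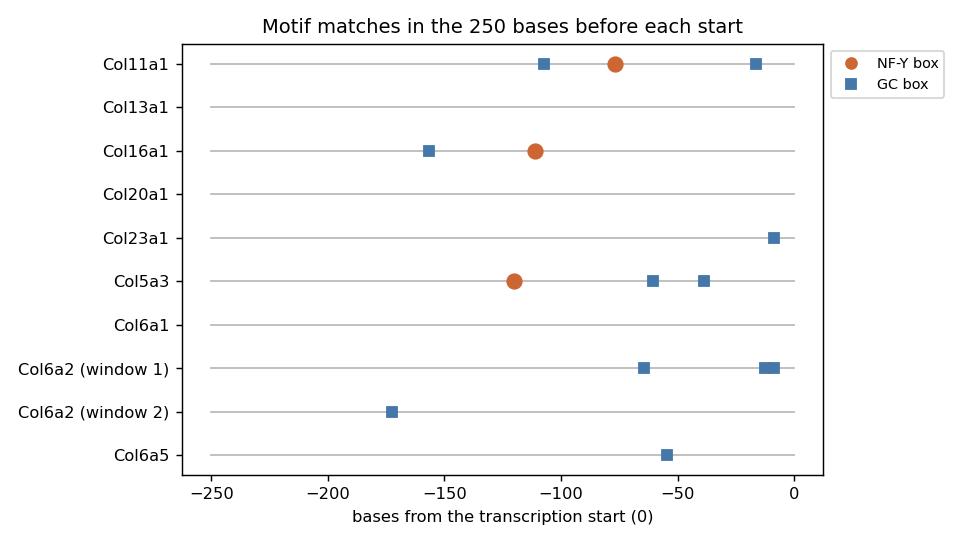
Position of each NF-Y box (circles, CCAAT) and GC box (squares, GGGCGG) in bases before the transcription start (x axis, 0 is the start) for each collagen gene. Col6a2 has 2 annotated starts. NF-Y boxes lie in the lines of Col11a1, Col16a1 and Col5a3, all more than 50 bases before the start.

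The FACIT genes had the highest levels. Col16a1, a chain that forms type XVI homotrimers at fibril and matrix interfaces, lies on chr4:129725084-129776521 in mm9, plus strand. Its normalized count was lowest at 369.7, median 543 and highest at 753 in the NT2 control samples. It was 1827, 1803, 1859, 1314 and 1587 in knockdown samples 4, 6, 8, 10 and 22. The lowest knockdown value was 1.75 times the highest control value, and the means were 539 ± 135 (SD, n = 6) and 1678 ± 229.8 (SD, n = 5). Its log2 fold change was 1.64 (standard error 0.17), the smallest standard error of the 9 genes, and the knockdown group had the narrowest spread, with a coefficient of variation of 13.7%.

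Col20a1, whose type XX product is a little-studied FACIT collagen, lies on chr2:180718937-180752245, plus strand. Control counts ran from 189 to 402, with a median of 279. Knockdown samples 4, 6, 8, 10 and 22 had 2180.3, 1774, 1822, 853 and 1224. The groups were apart by a factor of 2.12 between the highest control and the lowest knockdown sample, and the log2 fold change was 2.48 (standard error 0.25). Samples 10 and 22 were the lowest of the knockdown samples for both FACIT genes, and the range was wider for Col20a1, with a coefficient of variation of 33.5%. In GENCODE, 79 of 5142 exonic bases of Col20a1 are shared with the overlapping gene BX649560.1 on the same strand, so that reads there could have been counted to either.

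Of the fibrillar genes, Col11a1 encodes a minor chain that copolymerizes with the major fibril collagens and limits fibril width. It lies on chr3:113733458-113923244, plus strand. Control counts ran from 51 to 213, with a median of 105, and knockdown samples 4, 6, 8, 10 and 22 had 699, 639, 578, 331 and 254. The groups did not overlap, but the lowest knockdown value was only 1.2 times the highest control value. This gave a log2 fold change of 2.14 (standard error 0.36).

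Col5a3, which encodes the alpha 3 chain of type V, another regulatory fibrillar collagen, lies on chr9:20574494-20619478, minus strand. Its control counts ran from 30.8 to 132, with a median of 59. Knockdown samples 4, 6, 8, 10 and 22 had 502, 383, 342, 556 and 779.6, all at least 2.59 times the highest control. The log2 fold change of 2.89 (standard error 0.34) was the largest of the 9 genes, with means of 68.6 ± 35.3 (SD, n = 6) and 512 ± 173 (SD, n = 5). Among the knockdown samples the fibrillar genes ran in opposite order at the ends. Samples 10 and 22 were lowest for Col11a1 and highest for Col5a3. The control sample 21 was likewise lowest for Col11a1 and highest for Col5a3. Within the groups, over all 11 samples, the log2 levels of these genes had r = -0.65, the lowest of the 36 pairs of members.

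Type VI collagen needs the chains encoded by Col6a1 and Col6a2 together with a further chain, one of which is encoded by Col6a5. Col6a1 (chr10:76171537-76188789, minus strand) was at 16.6 to 111 (median 70.1) in the controls. Knockdown samples 4, 6, 8, 10 and 22 had 414, 263, 251, 305 and 478, and the lowest of them was 2.27 times the highest control. For Col6a1 the log2 difference was 2.41 (standard error 0.41).

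Col6a2 lies near Col6a1 on the same strand (chr10:76058501-76086149) and had control counts from 20.7 to 137, with a median of 62.9. The knockdown values were 253, 111, 167, 160.3 and 194. Knockdown sample 6 lay below control sample 23, the only control above 100, so that the groups overlapped. The log2 fold change was 1.43 (standard error 0.39), and 0.84 (standard error 0.51) in a fit that included a glial marker score, the mean level of 8 glial marker genes, in which it no longer met the thresholds.

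The ratio of Col6a1 to Col6a2 per kilobase of transcript, which does not depend on the scaling between samples, had a median of 1.11 among controls (0.468 to 2.77) and of 2.28 among knockdown samples (1.8 to 2.95). Control sample 21 lay within the knockdown range and the other control samples below it. These genes had the highest within-group correlation of the 36 pairs, r = 0.66 over 11 samples, which share the depth and scaling of each library.

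Col6a5 (chr9:105758400-105862974, minus strand) was the lowest and most variable member. Control counts ran from 1.55 to 80.6, with a median of 22.2, and the lowest, in sample 3, was a single estimated read. Knockdown samples 4, 6, 8, 10 and 22 had 58.5, 36.9, 193, 67.7 and 244. Samples 4, 6 and 10 lay below control sample 23, and the coefficients of variation were 101% in the control and 77% in the knockdown samples. The log2 fold change was 2.11 (standard error 0.68), 2.79 without control sample 23 and 1.67 without knockdown sample 22.

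The transmembrane collagen genes differed in how far the groups were apart. Col13a1, whose type XIII product sits at cell adhesion sites including the neuromuscular junction, lies on chr10:61301246-61441856, minus strand. Its control counts ran from 9.33 to 66, with a median of 26.6, and the knockdown values were 137, 176, 141, 162 and 121. The knockdown values were close together, with a coefficient of variation of 14.7%, and the lowest was 1.83 times the highest control. For Col13a1 the log2 difference was 2.25 (standard error 0.41). It was the only member whose highest estimated count was under 200, the minimum that the study's methods name.

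Col23a1, another type II transmembrane collagen gene, lies on chr11:51103422-51397427, plus strand. Control counts ran from 57 to 122, with a median of 99.9. The knockdown values were 349.7, 178, 129, 176 and 192, so that sample 4 stood apart from the others and the lowest was only 1.06 times the highest control. The log2 fold change was 1.10 (standard error 0.27), the smallest of the 9 genes, and 0.82 was the lowest value when single samples were left out. With the authors' scaling the groups overlapped and the log2 fold change was 0.96. When the glial marker score was a covariate it was 0.79 (standard error 0.40), which did not meet the thresholds.

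**Figure D3:**
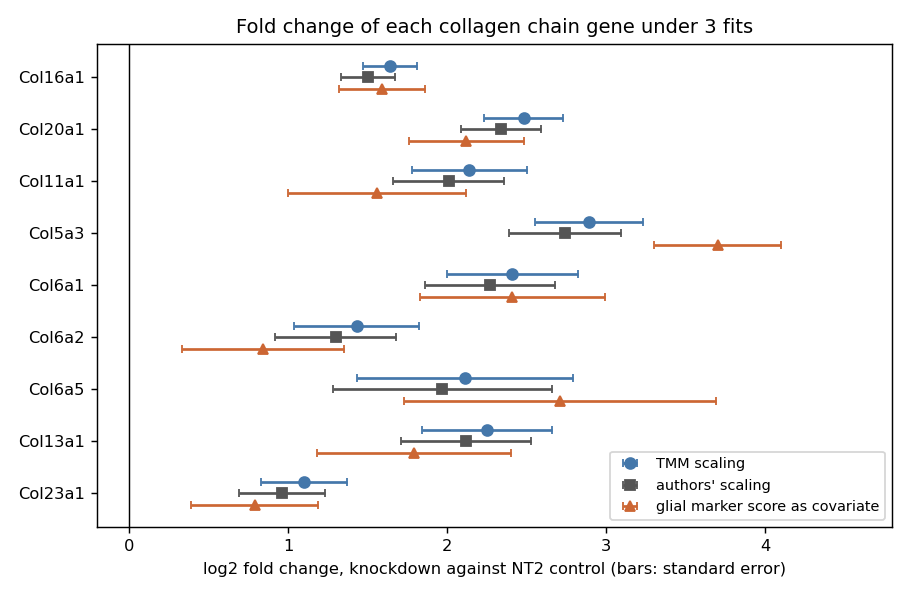
Log2 fold change of knockdown against NT2 control (x axis) for each collagen gene with its standard error (bars), under TMM scaling (circles), the authors' scaling (squares) and in the fit that includes the glial marker score (triangles). All estimates lie above 0, from 0.79 for Col23a1 to 3.70 for Col5a3, both in the fit with that score.

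By class, the median log2 fold change was 2.06 for the 2 FACIT genes, 2.52 for the 2 fibrillar genes, 2.11 for the 3 beaded filament genes and 1.68 for the 2 transmembrane genes, and the ranges of the classes overlapped. Sample numbers run from 3 to 10 and again from 21 to 23, and the labels do not explain the gap. Within the samples numbered 3 to 10, with 4 samples per group, no member had overlapping groups, beside 17.7% of the listed genes without overlap in that direction. The differences of mean log2 levels there ran from 1.15 for Col23a1 to 2.99 for Col5a3. The other series held 2 controls and 1 knockdown sample, too few to compare.

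To compare levels between genes, normalized counts were divided by the length of the longest transcript. Per kilobase, Col16a1 had 104 ± 26 (SD, n = 6) in the control and 322 ± 44.1 (SD, n = 5) in the knockdown samples. Col20a1 had 56.4 ± 16 and 313 ± 105, so that both FACIT genes were near the same level in the knockdown samples. Mean levels of the other 7 genes were 2.96 to 16.9 per kilobase among controls and 12.9 to 83.8 after knockdown. Col6a5 was the lowest in both groups.

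Of the summed level per kilobase of the 9 genes, Col16a1 made up 42.3% ± 5.79 (SD, n = 6) in the control and 32.4% ± 2.34 (SD, n = 5) in the knockdown samples. Col20a1 made up 23% ± 4.49 and 30.6% ± 6.17. The FACIT genes together thus held most of the sum in both groups. The ratio of Col20a1 to Col16a1 per kilobase ran from 0.371 to 0.871 in the control and from 0.675 to 1.24 after knockdown, and the groups overlapped through control sample 3. Col23a1 made up 7.06% ± 2.06 of the sum in the control and 3.6% ± 1.08 in the knockdown samples. Without length scaling, the normalized counts of the 9 genes summed to 1049 to 1797 (median 1232) per control sample and to 3926 to 6421 (median 5363) per knockdown sample.

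**Figure D4:**
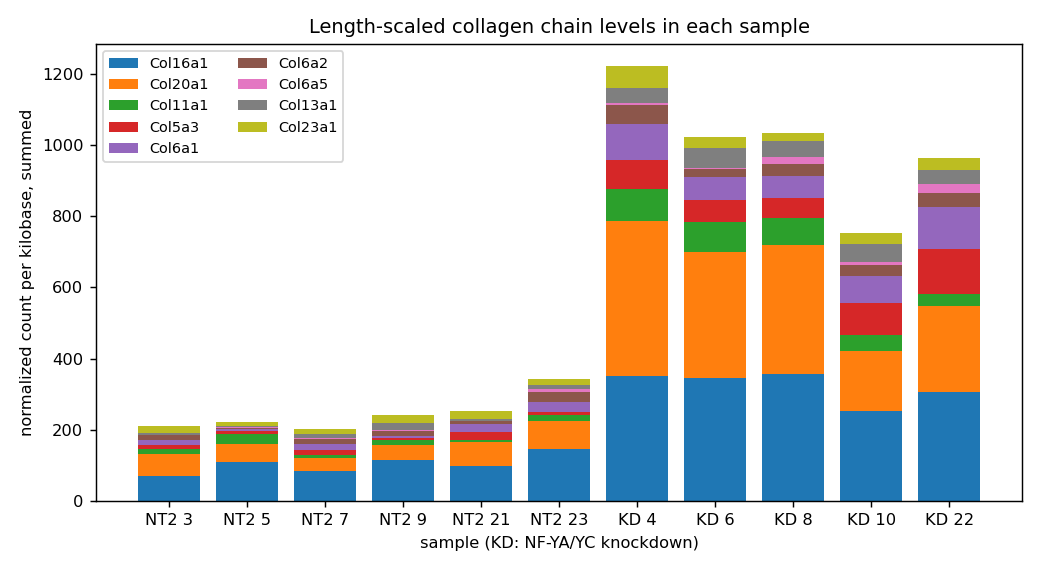
Stacked bars of the normalized count per kilobase (y axis, from 0) of the 9 collagen genes in each sample (x axis; KD, NF-YA/YC knockdown). Col16a1 and Col20a1 take most of each bar, and each of the 5 knockdown bars is taller than each of the 6 control bars.

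Of 136 genes in 4 lists (collagen biosynthesis, receptors, degradation and other matrix components), 20 were in the table. Of these, 9 were called higher and 9 lower, beside 40.7% and 25.9% of all listed genes (66.6% for either direction), and their median log2 fold change was -0.25. These genes passed the same choice by p-value as the collagen genes. With the authors' scaling 8 were higher and 10 lower, beside 34.2% and 47.1% of the listed genes, and when the fit included the glial marker score 5 of the 20 were called, beside 27.6%. With TMM scaling the lower calls, and the calls in either direction, were above the share of all listed genes. The other counts lay nearer to that share.

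Of 40 biosynthesis and processing genes, 5 were in the table, with 2 higher and 2 lower. Plod1, a lysyl hydroxylase of procollagen, had 3768 ± 490.0 (SD, n = 6) in the controls and 4829 ± 450.1 (SD, n = 5) after knockdown. Its log2 fold change was 0.36, and 0.23 with the authors' scaling, which missed the thresholds. Bmp1, the procollagen C-proteinase, had 1052 ± 294 and 1705 ± 423, and a log2 fold change of 0.70. Leprel1, a prolyl 3-hydroxylase, was lower at 419 ± 45.4 against 573 ± 159.5 in the controls. Lox, which cross-links collagen and elastin, was lower by a log2 fold change of -0.81. The prolyl 4-hydroxylase gene P4ha3 was not called, with a log2 fold change of -0.34.

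Of 17 receptor genes, 3 were in the table. Sdc1, a syndecan that binds collagen through heparan sulfate, had 92 ± 26.9 (SD, n = 6) in the control and 153 ± 39.7 (SD, n = 5) in the knockdown samples. Itga1, an integrin chain that binds collagen, was lower, with 347 ± 52.6 and 239.9 ± 72.1. Gpr56, an adhesion receptor for type III collagen, had a log2 fold change of -0.15 and was called only with the authors' scaling, at -0.29.

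Of 20 degradation genes, 4 were in the table. The metalloproteinase inhibitors went in different directions, Timp1 higher with a log2 fold change of 1.81 (standard error 0.56) and Timp4 lower with -0.78 (standard error 0.29). Mmp17, a membrane-anchored metalloproteinase, was higher, with 95 ± 22.6 (SD, n = 6) and 183 ± 82.6 (SD, n = 5). The neutrophil collagenase gene Mmp8 had a median of 0 in the control and 14.8 in the knockdown samples, and knockdown sample 6 was also at 0.

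Of 59 other matrix genes, 8 were in the table. The 3 higher genes were Thbs1, a thrombospondin, Comp, a cartilage matrix protein that binds collagen fibrils, and the laminin chain gene Lamb3. Thbs1 had a log2 fold change of 0.97 and Lamb3 of 1.40, and Comp had 51.2 ± 22.2 (SD, n = 6) in the control and 117 ± 20.8 (SD, n = 5) in the knockdown samples. Comp was the only one of the 20 genes whose groups did not overlap, beside 11.4% of the listed genes in that direction. The 5 lower genes were Sparcl1, Ncan, Ltbp4, Lama2 and Hapln1. Of these, Ncan and Hapln1 belong to the hyaluronan matrix of the brain, and Hapln1 had the largest difference, with a log2 fold change of -1.53.

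**Figure D5:**
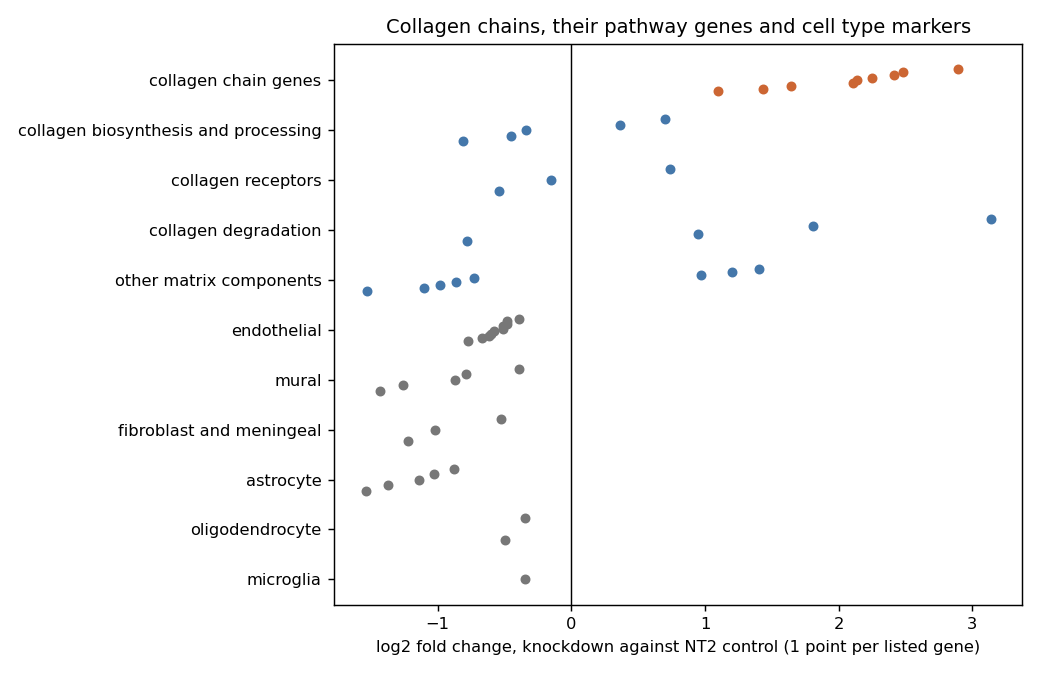
Log2 fold change of knockdown against NT2 control (x axis) for each listed gene of the collagen chains (orange), the collagen pathway lists (blue) and the cell type marker lists (grey), 1 point per gene. All 9 collagen genes lie right of 0 and all 26 markers left of it, and the point of Mmp8 at 3.14 rests on a control median of 0.

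Markers of cell types other than neurons were examined beside the collagen genes, because vessel and meningeal cells are known sources of collagen in the brain. Of 85 markers, 26 were in the table, and all 26 had a negative log2 fold change, from -1.54 to -0.35. Of these, 21 were called lower and 0 higher, beside 25.9% and 40.7% of all listed genes, and 25 were lower with the authors' scaling, beside 47.1%. The 16 endothelial markers had 10 in the table (8 called lower), the 13 mural markers 5 (4 lower), and the 16 fibroblast and meningeal markers 3 (3 lower). The summed count of the 10 endothelial markers ran from 10174 to 16552 in the control and from 6529.9 to 12301 after knockdown. The fibroblast and meningeal sum ran from 1072 to 1759.6 and from 529 to 898, without overlap, and the mural sum from 801 to 1803 and from 502 to 911. Slc22a8, a transporter gene, had the highest level of the 3 fibroblast and meningeal markers in the table and so the largest part in their sum. It was at 753 to 1220.4 in the control and 334 to 556 in the knockdown samples. The groups overlapped for the other markers of this list. Slc6a13 was at 58.9 to 176 in the control and 34.2 to 126 in the knockdown samples, and Foxc1 at 260.4 to 415 and 156 to 309. In these bulk samples, fewer cells of a type and less RNA per cell cannot be told apart.

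Of the glial markers, 5 of 14 for astrocytes, 2 of 14 for oligodendrocytes and 1 of 12 for microglia were in the table. The sums of the astrocyte markers were 24499 to 73107 in the control and 13746 to 31683 in the knockdown samples. Those of the oligodendrocyte markers were 23001 to 42202 and 22156 to 26549, and that of the microglial marker P2ry12 was 13336 to 25660.1 and 12841 to 16015. No marker in the table was at 0 in any sample. The sorted cells thus held RNA of several cell types in both groups. In the table were 0 of 8 general neuronal and 0 of 14 striatal projection neuron markers. Since the table was chosen by p-value, it cannot check the neuronal label. In brain sections, the paper found NeuN, a neuronal marker, in most cells with EmGFP. It also reported glial genes among its differing genes, possibly from infected glia or from glia carried along in the sort. The paper removed genes of non-neuronal cells from its final list, whereas markers of such cells were still among the 1767 genes used here. The glial marker score, the mean of the centred log2 levels of the 8 glial markers, ran from -0.45 to 1.06 in the control and from -0.84 to -0.11 after knockdown. With it as a covariate, 7 of 9 collagen genes met the thresholds, all 7 of them higher, beside 27.6% of the listed genes in either direction and 318 of 1767 genes in that direction. All 9 log2 fold changes were above 0, and that of Col5a3 was 3.70 (standard error 0.40). The score holds no endothelial, mural or meningeal marker, and its genes passed the same choice by p-value. The part of glial, vessel or meningeal cells in the collagen differences was not tested.

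Within the groups, the collagen genes did not vary as 1 set. Over the 36 pairs of members and 11 samples, the correlation of log2 levels centred on each group had a median of 0.19, and 22 pairs were above 0. Among 1446 genes with a mean normalized count of at least 50, those with the highest such correlation were named for the 3 genes with the largest fold changes. For Col5a3 they were Elovl5, a fatty acid elongase gene (r = 0.90, rho = 0.94), Ada, adenosine deaminase (r = 0.86, rho = 0.85), and Pigq (r = 0.81, rho = 0.68). For Col20a1 they were the imprinted non-coding RNA gene H19 (r = 0.94, rho = 0.95), Ptpro (r = 0.86, rho = 0.85) and Mrpl44 (r = 0.83, rho = 0.77). For Col6a1 they were Rnf141 (r = 0.92, rho = 0.96), 4933439F18Rik (r = 0.92, rho = 0.75) and Frmd8 (r = 0.90, rho = 0.79). H19 also had a positive log2 fold change of 3.35, whereas Elovl5 and Rnf141 were at -0.32 and -0.38. These correlations are the highest of a search over 1446 genes and are a description only.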

How the data were processed

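The RNA-seq data of EmGFP-positive striatal cells held 11 samples, 6 with the NT2 vector and 5 with the knockdown vector. Groups were taken from the labels. The cDNA was amplified with a SMARTer kit, libraries were made with Nextera XT, which keeps no strand, and single reads of 50 cycles were counted per gene with Strand NGS. The authors deposited estimated counts of 1767 genes, which are not normalized and partly fractional, log2 values, which are scaled for each sample and have the gene's median subtracted, and p-values. The authors' p-values were used only to check that every gene lies under 0.05, and deposited fold changes were not used. Coordinates of the table are in mm9, the build in the submitters' processing notes.

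Rounded estimated counts of all 1767 genes were fitted with edgeR 4.0.16 (R 4.3.3), using TMM factors, glmQLFit and glmQLFTest with the group as the only term. Calls needed a fold above 1.2 and a p-value under 0.05 without adjustment, the study's thresholds. TMM assumes that most genes are unchanged, which a table chosen by p-value does not meet, so the authors' scaling factors, recovered from their log2 values in 1247 genes whose counts all exceed 50, were also used. Other alternatives were DESeq2 1.42.0, its size factors, a highest count of at least 200, no fold threshold, adjusted p-values, a robust fit, a covariate (the glial marker score or the number series), and leaving out each sample. Spread is between samples, and the count of each gene limits its precision. Within groups, chi-square per degree of freedom was 21.4 to 170.2 over 25 pairs of samples, above sampling noise, and no samples were merged.

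Correlations used the log2 of the normalized count plus 0.5. Lengths are of the longest GENCODE M21 transcript, and promoter sequences are from RefSeq (GRCm38.p6); no coordinates were moved between builds. Protein sequences were not used here. Members, lists and thresholds were chosen with earlier results of these data known. Named genes are all collagen members, up to 4 genes of each list by level or those of a count of 5 or fewer, and for each of the 3 members with the largest fold changes the 3 genes most like it.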

Additional observations from a re-analysis of the deposited data

Results flagged for a closer look

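Of 20 groups of samples examined, 18 for the collagen genes and 2 for Nfyc, 2 held a sample far from the others by Dixon's criterion, which chance passes in about 1 of 20 groups. The Col6a5 count of 80.6 in control sample 23 was set apart by a gap of 0.669 of the range of the 6 controls. The Col23a1 count of 349.7 in knockdown sample 4 was set apart by a gap of 0.714 of the range of the 5 knockdown samples. Without these samples, the log2 fold changes were 2.79 for Col6a5 and 0.82 for Col23a1 (2.11 and 1.10 with all samples), and both met the thresholds.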

How the results depend on the processing

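Every alternative run reused samples of the comparison through which genes had entered the table, so none tests the collagen differences anew. Calls and signs of fold changes given here only describe how far the values depend on the processing. The 9 collagen genes were called in every alternative run except 2. The minimum of 200 for the highest count left out Col13a1 and gave 8. That count is taken over both groups, so that a gene can pass through the knockdown samples alone. Col6a5 did so, as its estimated counts summed to only 181 over the controls. The glial marker score as a covariate gave 7, without Col6a2 and Col23a1. Leaving out each sample in turn gave 9. Over 170 fold changes of single collagen genes under the alternatives, all 170 were above 0, from 0.79 to 3.70, and 169 moved by less than the spread between replicates. The exception was Col5a3 with the glial marker score (3.70), and the cause was not tested. The number of all listed genes called fell from 1177 to 765 with the minimum of 200, where fewer genes are tested, and to 487 with the glial marker score, and ranged from 1059 to 1200 when single samples were left out. The number of pathway list genes called fell from 18 to 5 with the glial marker score and to 11 in the samples numbered 3 to 10 only, an alternative chosen after seeing the data with fewer samples, and ranged from 16 to 18 when single samples were left out. The authors' scaling lowered the median log2 fold change of the listed genes (-0.13), and with it lower calls outnumber higher ones (832 and 605, against 457 and 720 with TMM). No paired analysis was run, because the groups share no replicate number and the labels name no pairs. Control samples have odd and knockdown samples even numbers, and the labels do not say whether neighbouring numbers were handled together. Depth limits Col6a5 and Col13a1 most, which have the lowest control counts.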
